A study of Homo sapiens with 24 samples.

Results

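HOX genes encode homeodomain transcription factors, and the table of counts held 39 of them among 60623 genes. They were every gene whose name was HOX, a cluster letter A to D and a number. The family was chosen by a difference seen in these same libraries, namely high levels of HOXB3, HOXB6 and HOXA3 in 1 of the 4 cell lines, so all levels between lines are given below as a description, without a test. The response of the same genes to low oxygen within that line is a different contrast and was tested.

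In the embryo, HOX genes are laid out in clusters in the order in which they act along the body axis. Genes with low numbers, at the 3' end, act in the hindbrain and neck, and genes with high numbers act in the trunk, the limbs and the tail. The proteins bind DNA together with TALE cofactors of the PBX, MEIS and PKNOX families, Polycomb complexes keep the clusters silent where they are not used, and retinoic acid and CDX factors switch them on. The retinal pigment epithelium (RPE) arises from the forebrain, which lies in front of the HOX domain.

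The libraries came from ARPE-19, a spontaneously arising human RPE cell line, in 4 forms: wild type (WT), cells carrying a retroviral vector control (VC), cells overexpressing EMP2 from a retrovirus (OE), and cells with EMP2 knocked down by a lentiviral short hairpin RNA (KD). EMP2 is a tetraspan membrane protein. Each form was kept in normoxia or placed for 4 h in 0.5% O2 (hypoxia), with 3 libraries per form and oxygen level and 24 in all. OE and VC were made by stable retroviral transduction and the study's methods call the knockdown lines clones. The labels name the overexpressing cells OE2 in sets 1 and 2 and OE1 in set 3, and both are taken here as 1 group. No hairpin control line was analysed here. The labels do not state whether replicates came from separate cultures, so the p-values cover only how much these libraries varied, and that variation may be technical.

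Each library held 10796813 to 19779450 counts (median 15992615). Values are given as CPM, each count relative to the TMM-adjusted total of its library, so a floor of 3 counts corresponds to 0.15 to 0.252 CPM in a single library. EMP2 lay at 54.6 CPM ± 0.92 (SD, n = 3) in WT, 50.8 ± 1.34 in VC, 586 ± 52 in OE and 12.2 ± 0.91 in KD in normoxia, in the order of the labels. The counts took up 64.9% of the uniquely mapped reads in OE hypoxia replicate 1 and 90% to 91.5% in the other libraries. VC stood apart from the other lines beyond the HOX genes: 214 genes had at least 1 CPM in all 6 VC libraries and at most 3 counts in each other library, against 0, 2 and 3 genes with the same pattern for WT, OE and KD. This count was chosen after its values were seen. It held 16 HOX genes, and what it is about the VC cells that goes with this pattern was not tested. Bulk libraries cannot tell a change in the number of cells that express a gene from a change in RNA per cell.

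HOX reads were found almost entirely in VC. The 6 VC libraries held 22748 reads of the 39 genes and the 18 libraries of WT, OE and KD together held 45, so that 99.803% of HOX reads came from VC. Of the 702 values of the family in the other lines, 35 were above 0, 26 of them were a single read, and none exceeded 3 reads. A floor of 3 counts over those 18 libraries is 0.0106 CPM, and counts and floors cover counting error only. The 45 reads were spread unevenly over the sets: 37 lay in the 6 libraries of these lines numbered 3, 5 in those numbered 2 and 3 in those numbered 1. All 8 libraries numbered 3, VC included, held 129 to 150 reads each of KRT5, a keratin of basal epithelium, against 0 or 1 in each of the other 16. Whether these stray reads share a source was not tested.

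**Figure D1:**
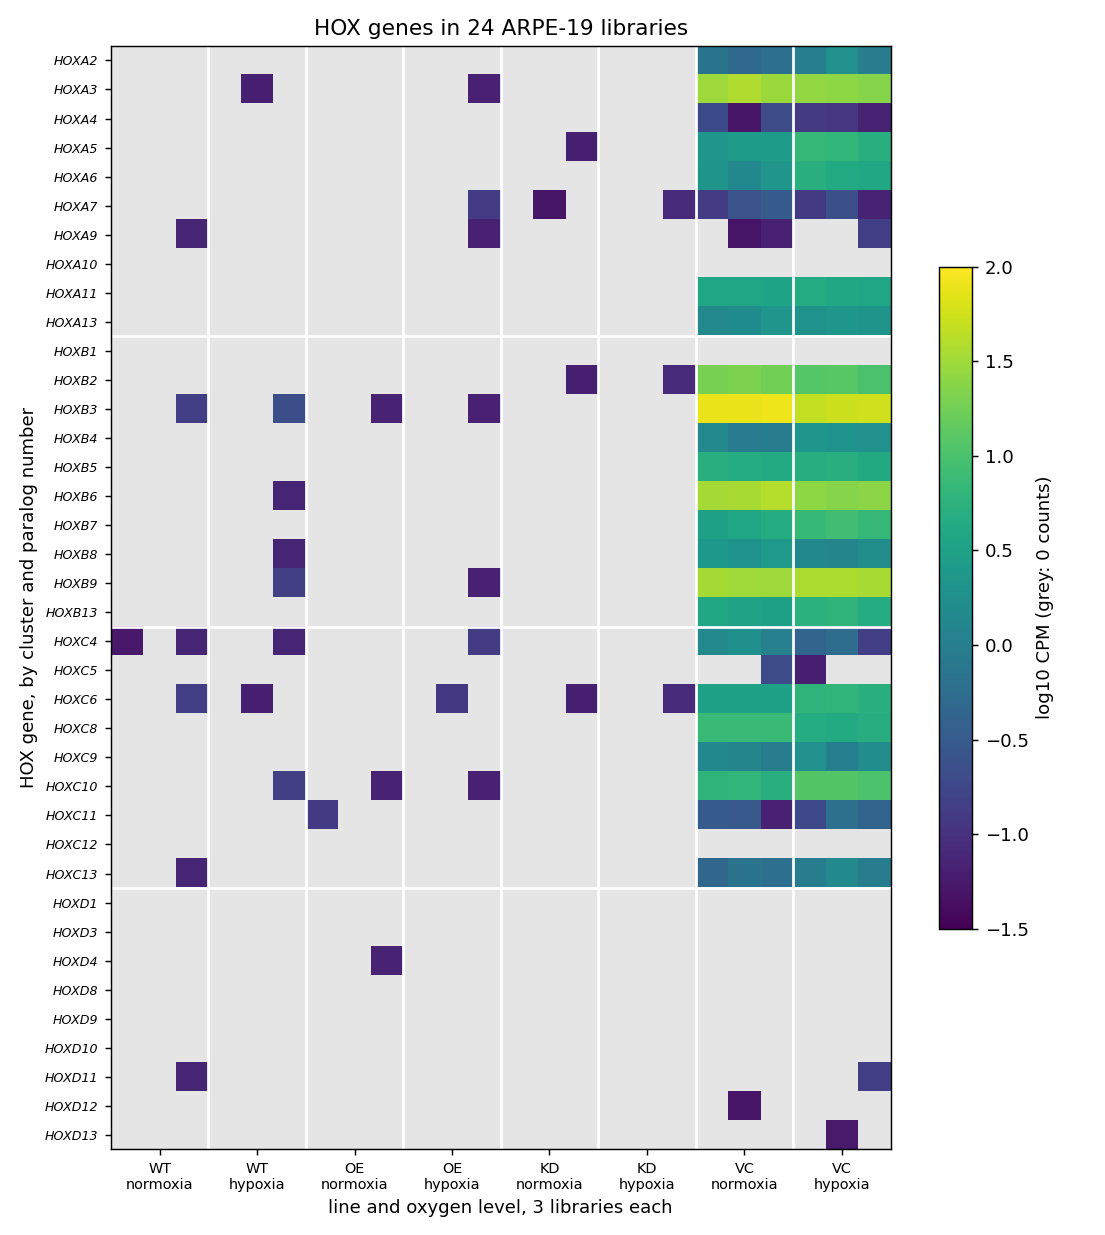
Levels of the HOX genes (rows, by cluster and paralog number) in the 24 libraries (columns, by line and oxygen level), as log10 CPM, with grey where a library held 0 counts. The 6 VC columns are filled over the HOXA, HOXB and HOXC clusters, while the 18 columns of WT, OE and KD are grey but for scattered cells of at most 3 counts.

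A gene was called expressed in a group where all 3 libraries had at least 1 CPM, silent where all 3 had 0 counts, and low otherwise. In VC, 17 genes were expressed in normoxia and 18 in hypoxia, 16 of them at both oxygen levels. HOXC4 was expressed in normoxia only, and HOXB4 and HOXC9 in hypoxia only. In the other lines no member was expressed at either oxygen level, and 200 of 234 pairs of gene and group were silent. The F-test over the 4 lines called 24 of the 25 members tested in normoxia and 23 in hypoxia, where 49.7% and 55.2% of all genes tested were called, but this contrast selected the family and nothing is read from the counts. The same holds for VC against WT, where 23 members were higher in normoxia and 23 in hypoxia (19.8% and 21.9% of all genes), and for OE against VC, where 23 and 22 were lower (18.1% and 20.3%).

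The clusters differed in how many reads they held in VC. HOXB, at chr17:48528526-48728750 (GRCh38), held 16174 of the VC reads (71.1%). HOXA, on chromosome 7, held 4367 (19.2%), and HOXC, at chr12:53938831-54056030, held 2203 (9.68%). HOXD, at chr2:176092721-176190907, held 4 reads (0.0176%). A total of 5 genes, HOXB3, HOXB9, HOXB6, HOXA3 and HOXB2, carried 76% of the VC reads.

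Within HOXB, all genes but HOXB1 were read in every VC library. HOXB2 and HOXB3 act in the hindbrain of the embryo. HOXB3 had the most reads of the family, with 79, 78.2 and 81.8 CPM in the 3 VC libraries in normoxia and 48.1, 53.4 and 55 in hypoxia. It had reads in 4 of the 18 other libraries, at most 3 in each. In normoxia, VC held at least 1360 times the level of KD, which had 0 HOXB3 reads. It held 2060 times that of WT, which had only 2 reads, both in the same library. The 95% exact interval of 570 to 17000 covers the counting error of pooled reads only. It leaves out variation between libraries and is no test between lines. HOXB2 had 19.3, 20.4 and 17.9 CPM in VC normoxia and 11.8, 12.4 and 9.91 in hypoxia, and a single read in 2 other libraries. For both genes the VC libraries of the 2 oxygen levels did not overlap, and normoxia lay above hypoxia. Over all genes tested, 43% did not overlap between the oxygen levels of VC, in either direction, beside 19 of 25 members tested (76%). A gene without VC reads counts as overlapping, while the members had enough counts to be tested through their VC reads. Nothing is therefore read from the difference between these shares.

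HOXB6, a gene of the middle of the cluster, had 33.4, 34.4 and 40.5 CPM in VC normoxia and 25.1, 22.9 and 24.8 in hypoxia, and 1 read in all other lines together. VC normoxia lay at least 620 times above WT, at least 581 times above OE and at least 613 times above KD. HOXB7 had 3.13, 3.61 and 4.63 CPM in VC normoxia and 7.09, 8.57 and 6.8 in hypoxia, with 0 reads in the other 18 libraries. Its VC libraries were thus all higher in hypoxia, the opposite of HOXB6. HOXB9, which in the mouse patterns the thorax, had 34, 31.6 and 30.7 CPM in normoxia and 36.7, 37.1 and 34.6 in hypoxia, against 3 reads in other lines. HOXB13, known for its role in the prostate, had 4.02, 3.26 and 3.11 CPM in normoxia and 5.47, 5.96 and 4.6 in hypoxia, and no read in other lines. HOXB4, HOXB5 and HOXB8 had group means of 1.08 to 4.72 CPM in VC and 1 read in all other lines together, and HOXB1 had no read in any library.

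In HOXA the reads were concentrated in HOXA3, needed in the mouse for the organs of the pharyngeal arches, with 30.7, 38 and 30 CPM in VC normoxia and 26.7, 25.5 and 22.9 in hypoxia. All other lines together held 2 HOXA3 reads, and VC normoxia lay at least 576 times above WT. HOXA5, which takes part in lung development in the mouse, had 2.17, 2.71 and 2.64 CPM in VC normoxia and 6.71, 6.64 and 5.17 in hypoxia. The neighbouring HOXA6 had 2.04, 1.35 and 2.12 CPM in normoxia and 5.35, 4.32 and 3.9 in hypoxia. Both lay higher in every hypoxic library. The posterior genes HOXA11 and HOXA13, which shape the limb and the reproductive tract, were also expressed, at group means of 3.58 and 4.03 CPM for HOXA11 in normoxia and hypoxia and of 1.71 and 2.07 CPM for HOXA13. Between them and the anterior genes lay a gap, with HOXA9 at 4 reads and HOXA10 at 0 reads over the 6 VC libraries, which allows HOXA10 up to 0.0304 CPM. HOXA7 and HOXA4 held 19 and 12 VC reads. HOXA2 had group means of 0.599 and 1.26 CPM.

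In HOXC the highest per kb of exon at both oxygen levels were HOXC8 (3.01 and 1.89 CPM per kb in VC normoxia and hypoxia) and HOXC10 (2.46 and 4.65), genes of the thoracic and the lumbar region in the mouse. HOXC8 had 7.47, 7.12 and 7.2 CPM in VC normoxia and 4.6, 4.37 and 4.74 in hypoxia, and no read elsewhere. HOXC10 had 5.94, 6.62 and 4.96 CPM in VC normoxia and 11.4, 11.6 and 10.1 in hypoxia, with 4 reads in other lines. HOXC6 had 3.19, 3.21 and 3.17 CPM in VC normoxia and 5.91, 6.3 and 5.31 in hypoxia. So HOXC8 lay lower in all hypoxic VC libraries, and HOXC6 and HOXC10 lay higher. HOXC4, a gene of the cervical region, had 1.4, 1.8 and 1.06 CPM in normoxia and 0.435, 0.568 and 0.142 in hypoxia. HOXC9, HOXC11 and HOXC13 had group means of 0.229 to 1.51 CPM, HOXC5 held 4 VC reads and HOXC12 none. Of the HOXD genes, HOXD1, HOXD3, HOXD8, HOXD9 and HOXD10 had no read in any of the 24 libraries, and HOXD4, HOXD11, HOXD12 and HOXD13 had 1 to 3 reads over all libraries.

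Levels can be compared between genes only per length, here as CPM per kb of merged exons. On this scale HOXB6 (13.9 ± 1.47 SD, n = 3), HOXB9 (12.4 ± 0.656), HOXB3 (10.7 ± 0.254), HOXB2 (7.82 ± 0.5) and HOXA3 (7.63 ± 1.02) led in VC normoxia. The libraries of HOXB6 (12.8 to 15.5) and HOXB9 (11.9 to 13.2) overlapped, as did those of HOXB2 and HOXA3, while the HOXB3 libraries lay between the pairs and overlapped with neither. In VC hypoxia HOXB9 came first (14 ± 0.517) and HOXB6 second (9.32 ± 0.462). Of the HOXB6 exon bases, 32.9% are shared with another gene. All HOXB6 reads divided by its unshared bases alone gave 20.7 CPM per kb in normoxia and 13.9 in hypoxia. Reads on shared bases, if counted for HOXB6, would raise these values.

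**Figure D2:**
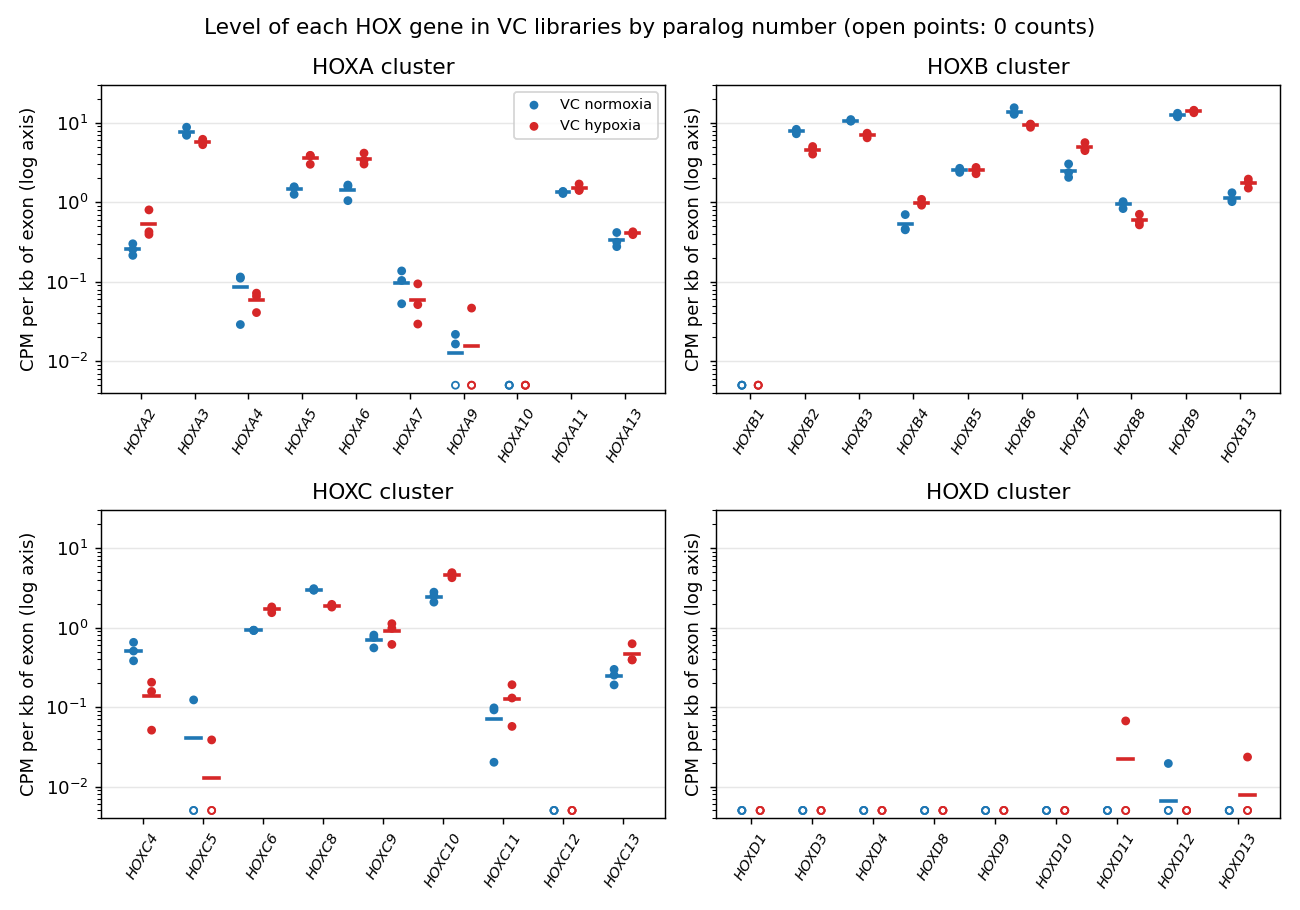
CPM per kb of exon (log axis) of each HOX gene in the 3 normoxic and 3 hypoxic VC libraries (points; short lines are means), by cluster and paralog number, with open points for 0 counts. HOXB is filled from HOXB2 to HOXB13, HOXA has a gap at HOXA9 and HOXA10, HOXC is lowest at HOXC5, HOXC11 and HOXC12, and HOXD holds at most 2 reads in a library.

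The levels did not follow the order of the genes along the clusters. In HOXB, per kb in normoxia, HOXB4 (0.538) lay between HOXB3 (10.7) and HOXB5 (2.52), and HOXB8 (0.945) lay next to HOXB9 (12.4). Genes with the same paralog number differed as much between clusters: of the group with number 3, HOXB3 and HOXA3 were expressed and HOXD3 was silent, and of the group with number 9, HOXB9 reached 12.4 CPM per kb, HOXC9 0.704 and HOXA9 0.0128. The number 6 group was expressed in all 3 clusters that hold it, with HOXB6 at 13.9, HOXA6 at 1.43 and HOXC6 at 0.923. Of the number 13 group, HOXB13 (1.14) and HOXA13 (0.337) were expressed, HOXC13 (0.247) was low and HOXD13 was silent in normoxia.

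With hypoxia in VC, 5 of the 25 HOX genes tested were called, in both directions, beside 21% of all genes. Of 25 members tested with edgeR's quasi-likelihood test (adjusted p under 0.01 over 24873 genes), 2 rose, HOXA5 and HOXA6, and 3 fell, HOXB2, HOXB3 and HOXB6. Over all genes tested 10.3% rose and 10.7% fell, so in this fit the share of members called was close to that of all genes. The median log2 fold change of the 25 members was 0.17, with quartiles of -0.57 and 0.88, beside -0.01 over all genes, with quartiles of -0.48 and 0.42.

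HOXA5 rose from 2.51 ± 0.294 to 6.18 ± 0.872 CPM (mean ± SD, n = 3; log2 fold change 1.30, SE 0.32, edgeR adjusted p = 0.0036). HOXA6 rose from 1.84 ± 0.42 to 4.52 ± 0.747 CPM (1.30, SE 0.35, edgeR adjusted p = 0.00851). These 2 genes are neighbours on chromosome 7. HOXB3 fell from 79.6 ± 1.88 to 52.2 ± 3.62 CPM (-0.61, SE 0.13, edgeR adjusted p = 0.000698), HOXB6 from 36.1 ± 3.82 to 24.3 ± 1.2 (-0.57, SE 0.13, edgeR adjusted p = 0.00168) and HOXB2 from 19.2 ± 1.23 to 11.3 ± 1.28 (-0.76, SE 0.18, edgeR adjusted p = 0.00204).

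The other 8 genes given by library above did not pass. HOXC10 (log2 fold change 0.91, edgeR adjusted p = 0.0105) and HOXB7 (0.98, edgeR adjusted p = 0.0103) lay just outside the threshold. Same-numbered VC libraries deviated together, but the fit above held no block for the replicate number. With that block HOXC10 passed (edgeR adjusted p = 0.0088) and 6 members were called (21.7% of all genes). The estimates of HOXC6 (0.87), HOXB13 (0.63) and HOXB9 (0.17) were positive, and those of HOXA3 (-0.39), HOXC8 (-0.67) and HOXC4 (-1.86) negative, with edgeR adjusted p of 0.0313 to 0.394. The other 12 members tested ranged from -0.69 to 1.08, 8 of them above 0.

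The number of calls differed between fits. A fit of the 6 VC libraries alone called 14 members, 8 higher (HOXA2, HOXA5, HOXA6, HOXB4, HOXB7, HOXB13, HOXC6 and HOXC10) and 6 lower (HOXA3, HOXB2, HOXB3, HOXB6, HOXC4 and HOXC8), where 28.5% of all genes were called. Leaving out OE hypoxia replicate 1, the library with the low counted share, gave 11 (26.7% of all genes). Leaving out the libraries numbered 2 gave 0 and those numbered 3 gave 1, HOXB3 (10.9% and 14.7% of all genes). Leaving out single VC libraries gave 2 or 3 (16.7% to 18.3% of all genes). HOXB3 was called without each of the 6 VC libraries in turn, while HOXA6 lost its call without any one of them and HOXA5 kept it only without VC hypoxia replicate 3. All 13 genes given by library kept their sign in the 22 alternatives run. By limma with a pseudocount of 2, which shrinks the changes of low genes, the log2 fold change was 0.86 for HOXA5, 0.77 for HOXA6 and -0.51 for HOXC4.

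**Figure D3:**
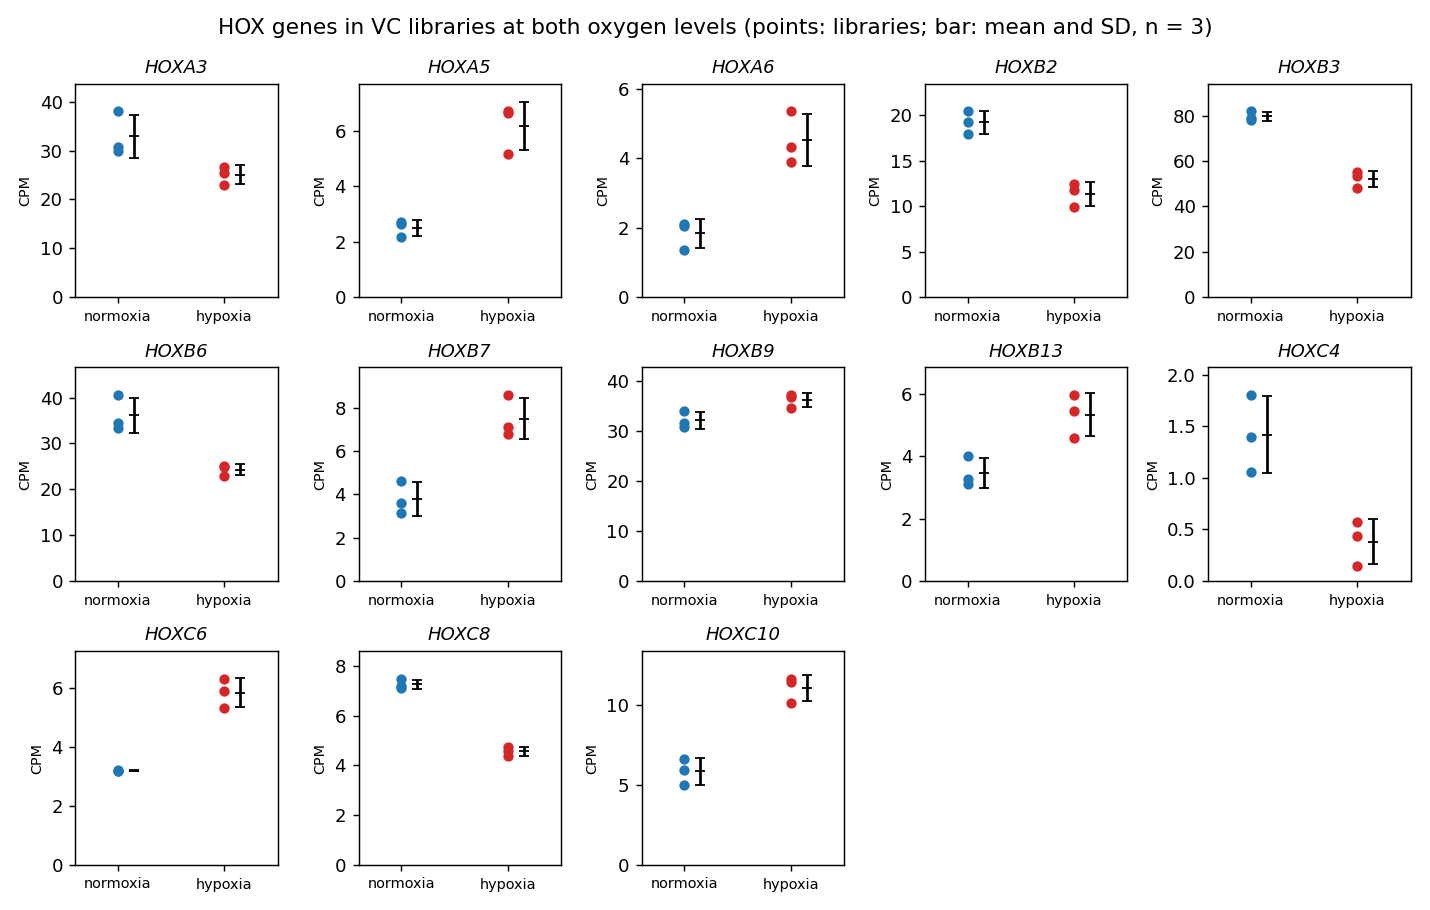
CPM of 13 HOX genes in the 3 normoxic (blue) and 3 hypoxic (red) VC libraries, with the mean and SD beside the points and each axis starting at 0. HOXA5 and HOXA6 lie higher in all 3 hypoxic libraries, and HOXB2, HOXB3 and HOXB6 lie lower in all 3. Of all genes tested, 43% did not overlap between the oxygen levels.

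Summed over the cluster, HOXB lay at 182, 179 and 186 CPM in normoxia and 143, 149 and 144 in hypoxia. HOXB2, HOXB3 and HOXB6 carried most of this sum, while the estimates of HOXB4, HOXB5, HOXB7, HOXB9 and HOXB13 were above 0, so the sum does not describe the cluster as a whole. HOXC lay at 20.1, 21 and 18.2 CPM in normoxia and 25.4, 26 and 23.2 in hypoxia. HOXA lay at 41.5, 48.7 and 42.2 against 47, 45.1 and 39.4 and overlapped. No test of these sums could pass a threshold of 0.05, since a two-sided exact permutation test of 3 libraries against 3 goes no lower than p = 0.1, and they are given as values.

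**Figure D4:**
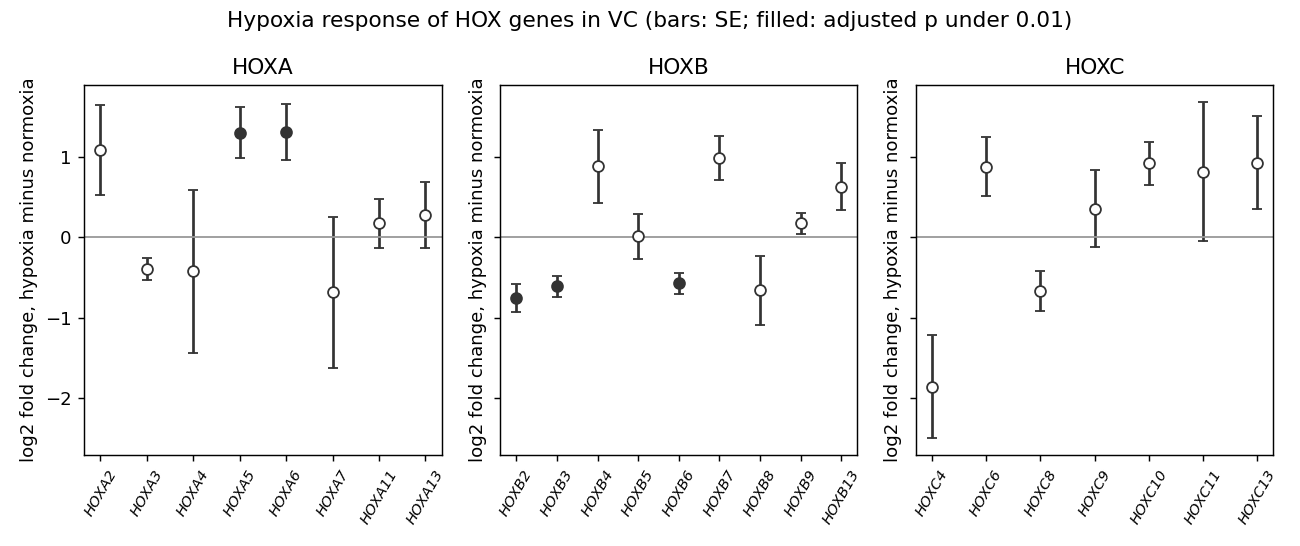
Log2 fold change of hypoxia minus normoxia in VC (points; bars are SE) for HOX genes tested, by cluster and paralog number, filled where the edgeR adjusted p was under 0.01. The filled points are HOXA5 and HOXA6 above 0 and HOXB2, HOXB3 and HOXB6 below 0.

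In WT, OE and KD the depth gave no measure of how HOX genes respond to EMP2 or oxygen. The 25 members passed the filter on low counts through their VC reads and had 0 to 3 reads in each library of the other lines, so that a lack of calls follows from the near absence of reads, and nothing is read from the counts that follow. By edgeR 0 of 25 were called for OE against WT in normoxia or hypoxia (19.7% and 26.6% of all genes), for KD against WT (16.3% and 18.2%), or for hypoxia in WT, OE or KD (21.1%, 13.9% and 19.1%). The count at an unadjusted p under 0.05 was 0 in each, as were those of DESeq2 and limma. The same limit holds for the F-test of whether the hypoxia response differed between lines, with 0 members called by edgeR (13.1% of all genes, 0 at an unadjusted p under 0.05), 0 by DESeq2, and 7 and 14 by limma with pseudocounts of 0.5 and 2. A response of HOX genes in lines with next to no HOX reads cannot be compared with that of VC.

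The gene models of the clusters overlap, which bears on the values above. HOXA3 spans 46.4 kb on chromosome 7 and holds HOXA4, HOXA5 and HOXA6 within it. HOXB3 spans 56 kb and holds HOXB4 and HOXB5, and HOXC6 spans 40.2 kb and holds HOXC8 and HOXC9. HOXB7 spans 26.3 kb and holds HOXB8 and HOXB9, but 0% of its exon bases are shared with another gene. HOXC4 spans 39.1 kb and holds HOXC5. The antisense gene HOXA-AS2 lies in the same stretch as HOXA3. It had 12.5 ± 0.471 CPM in VC normoxia and 4.12 ± 0.687 in hypoxia (n = 3; log2 fold change -1.61, SE 0.24, edgeR adjusted p = 2.59e-05). Whether the counting used strand is not given in the sources used here, so reads of overlapping sense and antisense genes may not be told apart. Of the HOXA6 exon bases, 40.1% are shared with other genes and of those of HOXA5 0%.

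Promoter sequences of 20 members were at hand (27 windows from 250 bases before to 50 bases after a RefSeq start, GRCh38.p14), among them 1 of the 5 genes that moved with hypoxia, HOXA6. The windows were searched on both strands for ACGTG and GCGTG, the 2 forms of the core to which hypoxia-inducible factors bind. Either was present in 19 of the 27 windows, and in 48.4% of 35116 windows of all genes (21.4% for ACGTG and 36.5% for GCGTG). Printed are the HOXA6 window, chr7:27147725-27148024, and, for the sharp edge in HOXA, those of the silent HOXA10, chr7:27179812-27180111, and of its expressed neighbour HOXA11, chr7:27185183-27185482. Another HOXA10 start, chr7:27174271-27174570, is not printed and held 1 ACGTG match and 25 CG pairs, so HOXA10 is not a gene without a match. All lie on the minus strand and are written 5' to 3', with the matches in capitals.
HOXA6: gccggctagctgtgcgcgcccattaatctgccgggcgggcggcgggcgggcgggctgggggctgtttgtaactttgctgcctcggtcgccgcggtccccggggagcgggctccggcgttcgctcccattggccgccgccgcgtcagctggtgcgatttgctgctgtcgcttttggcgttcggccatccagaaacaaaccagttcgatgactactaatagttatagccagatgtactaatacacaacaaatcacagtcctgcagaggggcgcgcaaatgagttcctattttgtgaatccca
HOXA10: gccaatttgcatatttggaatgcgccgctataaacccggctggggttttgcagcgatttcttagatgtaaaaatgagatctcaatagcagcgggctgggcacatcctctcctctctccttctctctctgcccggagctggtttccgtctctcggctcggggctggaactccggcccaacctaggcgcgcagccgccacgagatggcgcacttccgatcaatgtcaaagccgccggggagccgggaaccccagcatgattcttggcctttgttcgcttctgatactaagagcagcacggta
HOXA11: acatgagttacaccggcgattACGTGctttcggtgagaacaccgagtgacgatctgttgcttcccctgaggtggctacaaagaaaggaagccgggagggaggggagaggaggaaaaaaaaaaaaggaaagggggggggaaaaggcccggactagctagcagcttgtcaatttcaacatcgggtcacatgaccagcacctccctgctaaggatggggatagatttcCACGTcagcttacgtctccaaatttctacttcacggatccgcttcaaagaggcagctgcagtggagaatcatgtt
The HOXA6 window held no match and the HOXA11 window held 2 ACGTG, while HOXA6 was called in hypoxia and HOXA11 was not (3.58 against 4.03 CPM). A match in these letters is no evidence of binding, and the lack of one says nothing about the factor. CG pairs numbered 29 in the HOXA6 window, 21 in the HOXA10 window printed and 13 in that of HOXA11, beside a median of 14 over all windows, so both values of the silent HOXA10 lay between those of the expressed HOXA6 and HOXA11.

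Other genes inside the clusters followed the same line. Of 61 such genes in the table, 38 had no read and 15 had at least 10, and 14 of these 15 had reads in VC and at most 6 in the 18 other libraries. The exception was RPL9P28, a ribosomal protein pseudogene with 29 reads in VC and 86 elsewhere. Among the antisense genes, HOXA-AS2 had 836 reads in VC and 1 elsewhere, HOXA11-AS 116 and 0, and HOXB-AS1 79 and 0. HOTAIR, the long noncoding RNA of the HOXC cluster known for its ties to Polycomb, had 110 and 5, and HOTAIRM1 36 and 0. Of the 15, 11 were called higher in VC than in WT in normoxia (19.8% of all genes), but all except RPL9P28 passed the filter on low counts through VC and nothing is read from this. With hypoxia in VC, 1 of the 15 fell, HOXA-AS2, and 0 rose (10.7% and 10.3% of all genes; edgeR).

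Of the microRNAs encoded in the clusters, the MIR196A1 hairpin had 10 reads, all in VC, and lies inside the HOXB7 gene model on the same strand, so its reads may belong to either gene. MIR196A2, MIR196B and MIR10A had 0. These libraries do not capture mature microRNAs, so the reads stand for the longer transcript. The mature arms are shown because miR-196a and miR-196b share a seed (bases 2 to 8, in capitals) that pairs with HOX transcripts, HOXB8 being the best known, while miR-10a has another.
hsa-miR-196a-5p: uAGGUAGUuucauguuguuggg
hsa-miR-196b-5p: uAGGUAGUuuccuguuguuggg
hsa-miR-10a-5p: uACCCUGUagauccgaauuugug

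Outside the clusters, within 200000 bases on either side, 20 genes had at least 10 reads. SKAP2, an adaptor of Src family kinases that lies 97.8 kb beyond the 3' end of the HOXA cluster, had 26026 reads in VC and 23 elsewhere, or 313 ± 14.1 CPM in VC normoxia against 0.191 ± 0.156 in WT. On the other flank of HOXA the noncoding AC004009.1 had 191 and 0. TTLL6, a tubulin polyglutamylase 33.5 kb beyond HOXB13, went the other way, with 0.632 ± 0.121 CPM in VC normoxia against 11.1 ± 0.608 in WT and 1.27 ± 0.481 in OE. LINC02381, 70 kb from HOXC, had 173 reads in VC and 1 elsewhere, while SMUG1 and CBX5 on the same flank were read in every line. The HOXD flanks LNPK and MTX2 were read in every line, with 7556 and 3338 reads in VC, although the cluster between them was not. Of the 20 neighbours, 7 were higher and 3 lower in VC than in WT in normoxia, where 19.8% and 16% of all genes were. Several of the 20, AC004009.1 and LINC02381 among them, passed the filter on low counts through VC, and nothing is read from these counts.

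**Figure D5:**
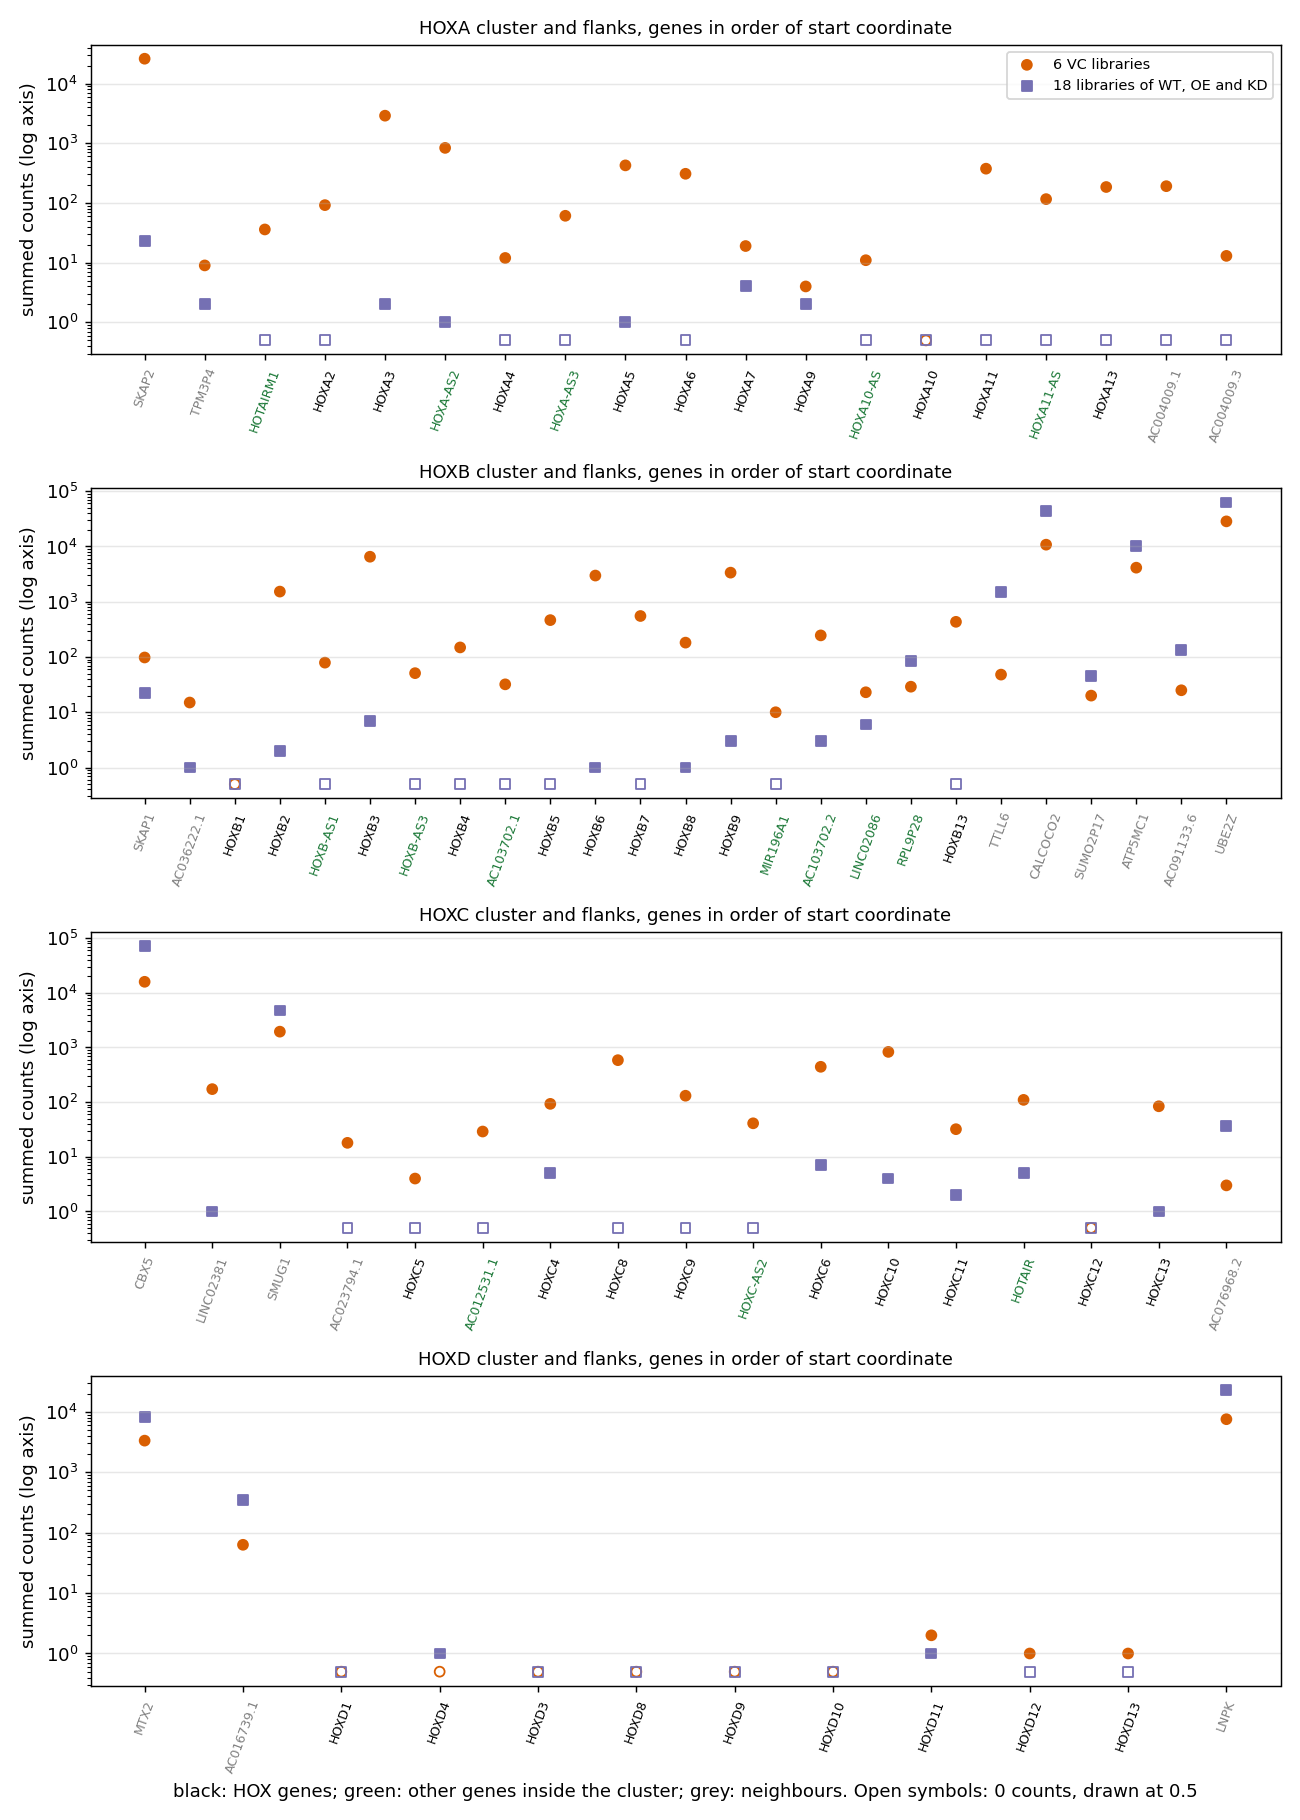
Summed counts (log axis) in the 6 VC libraries (circles) and the 18 libraries of WT, OE and KD (squares) for HOX genes (black names), other genes inside each cluster (green) and neighbours within 200000 bases (grey) with at least 10 counts, in order of start coordinate (descending for HOXC and HOXD), with open symbols at 0.5 for 0 counts. Circles and squares part over HOXA, HOXB and HOXC, with SKAP2 included, and come together at UBE2Z, SMUG1, LNPK and MTX2.

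Among genes that set the HOX code in the embryo, CDX2, a caudal-type factor that activates trunk HOX genes, had 61 reads in VC normoxia and 48 in VC hypoxia and 0 reads in WT, OE and KD. VC lay at least 20.8 times above WT in normoxia. RARB, a retinoic acid receptor, was lower in VC (22.2 ± 2.04 CPM) than in WT (89 ± 8.59), and CYP26A1, which breaks down retinoic acid, was highest in OE hypoxia (3.95 ± 1.09 CPM). Of 15 genes of this list tested, 6 were higher and 2 lower in VC than in WT in normoxia (19.8% and 16% of all genes). The median log2 fold change was 0.54 beside 0.03 over all genes. CDX2, without reads outside VC, passed the filter on low counts through VC, and nothing is read from its call.

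Cofactor and chromatin genes were read in every line: in normoxia, 7 or 8 of 9 TALE genes, 29 or 30 of 30 Polycomb genes and all 18 Trithorax and activating genes had at least 1 CPM in all 3 libraries of a line. Of the 9 TALE cofactor genes, 4 were higher in VC than in WT in normoxia (MEIS1, MEIS2, PBX2 and PKNOX1) and 2 lower (PBX3 and PKNOX2), where 19.8% and 16% of all genes were, and their summed level was 298 to 324 CPM in VC and 280 to 305 in WT. Hypoxia lowered 3 of them in VC, among them MEIS2 from 88 ± 6.04 to 57.4 ± 0.0558 CPM and PBX3 from 62.5 ± 3.48 to 46 ± 2.03, and raised none. MEIS3 was lower in OE than in WT in hypoxia (3.2 ± 0.717 against 33.4 ± 1.23 CPM). Of 30 Polycomb genes, 5 were higher and 6 lower in VC than in WT in normoxia (median log2 fold change -0.04 beside 0.03), shares close to those of all genes. SUZ12, a core subunit of Polycomb complex 2, was among the higher ones (94.2 ± 11.1 against 44.4 ± 4.53 CPM), and EZH2, its catalytic subunit, had 16.2 ± 0.946 CPM in VC and 17.4 ± 1.05 in WT. Of 18 Trithorax and other activating genes, 4 were higher, WDR5 among them (95.3 ± 7.31 against 56.3 ± 4.56 CPM), and 3 lower, with MLLT3 at 9.45 ± 0.712 against 18.5 ± 1.24. With hypoxia in VC, where 10.3% of all genes rose and 10.7% fell, 4 of the 30 Polycomb genes rose and 5 fell, 5 of the 18 Trithorax and activating genes rose and 2 fell, and 4 of the 15 retinoid and posterior genes rose and 4 fell.

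The RPE label was checked against 14 marker genes. Their summed level was 5200 to 5530 CPM in WT normoxia, 3050 to 3360 in OE, 3500 to 3590 in KD and 1580 to 1680 in VC. Of the 14, 9 were lower and 3 higher in VC than in WT in normoxia. Beside them and each list below, 16% of all genes were lower and 19.8% higher. Of the defining genes, RPE65 was at or under 1.51 CPM in every normoxic library. OTX2 had 36.6 ± 0.868 CPM in VC normoxia and 131 ± 6 in WT, and MITF 54.6 ± 5.99 and 158 ± 3.99. RAX, an eye field factor, had 0.68 ± 0.285 and 8 ± 0.807. These 3 all lay lower in VC, so they do not stand for the 3 RPE markers called higher, whose values are not given here. Of 6 forebrain and eye field genes tested, 3 were lower and 1 higher in VC than in WT in normoxia. Markers of other cell types differed as well. The summed level of 10 fibroblast markers was 104 to 108 CPM in VC normoxia and 402 to 414 in WT, with 3 of 9 tested higher and 4 lower in VC. That of 10 keratinocyte and basal markers was 285 to 310 in VC and 80.9 to 94.1 in WT, with 1 of 10 higher and 1 lower. ITGB4 alone made up 285 of the VC sum. The defining KRT14 had 1 to 3 reads in each library numbered 3, over all lines and oxygen levels, and 0 in every other library. That of 10 endothelial markers was 9.83 to 12 in VC and 11 to 12.1 in WT, with 1 of 9 higher (PECAM1) and 1 lower, and CDH5 had 2 reads in each. That of 5 blood markers was 5.49 to 6.81 in VC and 0.0717 to 0.153 in WT, with both genes tested higher, CD14 and ITGAM, and with CD3E at 0 reads and PTPRC at 4 in VC. The blood markers had next to no reads in WT, so nothing is read from these 2 calls. The part of these differences in the HOX levels was not tested.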

How the data were processed

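RNA was sequenced from 24 ARPE-19 libraries as single 50-base reads after ribosomal RNA depletion. The authors demultiplexed with bcl2fastq 2.17, aligned with STAR to GRCh38 and deposited raw counts per gene, without normalization, which were the values tested here. The authors also deposited normalized counts, a signal scaled by TMM to 1 factor per library. Divided by the smallest value above 0 of its library, 100% of these values were whole numbers within 0.01 of a read. The reads recovered in this way equalled the deposited counts in 100% of values. The same edgeR fit on them therefore had to call the same 5228 genes for hypoxia in VC. It counts among the alternatives run but is no separate check. Of the deposited alignment report, other values used were the numbers of uniquely mapped reads.

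Genes with at least 10 counts over all libraries were fitted in 1 model of 8 groups with edgeR 4.0.16 (R 4.3.3; TMM, robust quasi-likelihood), and p-values were adjusted by Benjamini-Hochberg over all genes tested. This kept 25 of 39 members, and the 14 left out were HOXA9, HOXA10, HOXB1, HOXC5, HOXC12 and the 9 HOXD genes. Alternatives used DESeq2 1.42.0 and limma 3.58.1 on log2 values, other scalings and filters, and left out libraries. The test was checked on simulated data. The members and lists were chosen with earlier results of these data known. Libraries of all groups shared replicate numbers. In VC the deviations of same-numbered libraries from their group means correlated at 0.164 to 0.423 in all 3 pairs between oxygen levels. All 3 pairs also passed 0.1 between KD and WT at both levels and between OE and VC in normoxia. A fit with the number as a block was therefore run as an alternative. The main fit and the p-values reported from it held no block. Over all pairs of groups, 47 of 84 same-numbered pairs passed 0.1.

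Values in every library are given for members with a group mean of at least 5 CPM that were called over the 4 lines, with HOXA6 and HOXC4 added after their values were seen, and other members by ranges. Listed genes are those with the largest changes against WT and, after their values were seen, others named for their role. Exon lengths and overlaps are from GENCODE 44 on GRCh38, and sequences from RefSeq. Amino acid sequences were not used here. The values of a few genes, 1 member among them, are not reported here and not drawn, and counts over the family and lists include them.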

Additional observations from a re-analysis of the deposited data

How the results depend on the processing

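Depth limits what can be said of WT, OE and KD, where 45 reads stand for the whole family, and of HOXA4, HOXA7, HOXC11 and the HOXD genes in VC. The number of members called for hypoxia in VC was 5 as reported, where 21% of all genes were called. It was 8 with a filter of 1 CPM in 3 libraries (37% of all genes) and 9 at an adjusted p under 0.05 (27.9%). With only the libraries compared it was 14 (28.5%), and without OE hypoxia replicate 1 it was 11 (26.7%). By limma with pseudocounts of 0.5 and 2 it was 15 and 16 (23% and 23.9%). In the fits with 11 to 16 calls the share of members called was above that of all genes. The members passed the filter on low counts through their VC reads, while all genes include some with few VC reads. Nothing is therefore read from this difference in shares. With 1 replicate number or 1 VC library left out the number ranged from 0 (10.9% of all genes) to 8 (21.4%), and with all leave-outs from 0 to 11. The lone-number fits hold 2 libraries per group. With a replicate block 6 members were called (21.7% of all genes). In VC alone with a replicate block, an alternative chosen after seeing the data, 14 were called (32.5%). The cause of these differences between fits was not tested. For the difference in response between lines, limma called 7 and 14 with the 2 pseudocounts against 0 by edgeR and DESeq2. The replicate block changed no call of the 13 named genes for hypoxia in VC other than HOXC10. All other counts stayed within 1.5 times. The fold changes of the 13 named genes never changed sign, but that of HOXA5 ranged from 0.86 to 1.46, that of HOXA6 from 0.77 to 1.53 and that of HOXC4 from -2.25 to -0.51. The members expressed in VC numbered 14 to 21 with limits of 2 and 0.5 CPM.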
